A study of Mus musculus with 4 samples.

Results

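The genes of the interneuron lineage factors are 9 genes chosen by name, Dlx1, Dlx2, Dlx5, Dlx6, Lhx6, Maf, Sp8, Sp9 and Npas1, out of 21938 protein-coding genes in the GENCODE M21 annotation of mouse build mm10. The rule uses no measured value, and all 9 names matched an annotated gene. For each gene, every deposited peak in the gene body, within 50 kb of it, and between the paired Dlx genes was collected. Dlx1 with Dlx2 and Dlx5 with Dlx6 were each treated as 1 locus, so the 9 genes lie in 7 loci of 106.2 to 124.9 kb.

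Hippocampal layer tissue was profiled by ChIP-seq for H3K27ac, the acetylated lysine 27 of histone H3, which is found at promoters and enhancers in use. The 4 samples came from adult male mice of the hybrid strain B6CASTF1/J at 2 months of age and formed 1 group with no treatment or genotype contrast. Pool C was biological replicate 1 and pool D was biological replicate 2. Each of these 2 pools joined 7 biosamples and had 2 technical replicates, so animals cannot be told apart within a pool. The authors' 4 peak lists were used: a replicated list of 88930 peaks, a combined list of 102643 peaks from both pools together, a pool C list of 94836 peaks and a pool D list of 63623 peaks. The lists share reads. Read totals were not analysed here and the depth is unknown, so a region with no peak is one where none was called. The tissue is a mixture of cells, and in bulk tissue fewer cells of a type and less of the mark per cell cannot be told apart. All 6 genes listed as markers of excitatory neurons, among them Slc17a7 and Camk2a, had a promoter peak in all 4 lists, where 57.8% of all coding genes did. These 6 genes do not measure the share of any cell type.

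GABA-releasing interneurons are born in the ganglionic eminences of the embryonic ventral forebrain and migrate from there into the hippocampus. The Dlx homeodomain factors act early in these cells, with Dlx1 and Dlx2 upstream of Dlx5 and Dlx6, and each pair sits tail to tail around a stretch of DNA that is known to hold forebrain enhancers. Lhx6, a LIM-homeodomain factor, and Maf, a basic leucine zipper factor, specify the somatostatin and parvalbumin interneurons of the medial eminence. Sp8 and Sp9 are zinc finger factors that act in interneurons of the lateral and caudal eminences, among others, and Npas1 is a bHLH-PAS factor of forebrain interneurons.

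A promoter peak, counted where a peak touched the 1 kb on either side of any transcription start site (TSS) of the gene, was present at 6 of the 9 genes in at least 1 list, and only Maf had one in every list. In the replicated list Dlx5, Dlx6 and Maf had one, 3 of 9 genes, where 61.6% of all coding genes did. In the combined list Dlx1, Dlx6 and Maf had one, 3 of 9 against 62.5% of coding genes. In the pool C list Dlx1, Dlx2, Dlx6, Lhx6 and Maf had one, 5 of 9 against 62.3%. In the pool D list only Maf had one, 1 of 9 against 57.9%. Sp8, Sp9 and Npas1 had a promoter peak in no list, as did 36.7% of coding genes, and 57.8% of coding genes, like Maf, had one in all 4. Of coding genes with a promoter peak in the pool C list, 92.8% also had one in the pool D list, and of the 5 interneuron factor genes only Maf did. Dlx1, Dlx2, Dlx6 and Lhx6 had pool C peak signals of 3.49 to 4.31, below the 10th percentile of 6.08 for marked coding genes. The share was not computed for coding genes of like signal. Of coding genes with one in the pool D list, 99.8% also had one in the pool C list. The Dlx5 and Dlx6 calls in the replicated list rest on narrow peaks 779 and 749 bp from the nearest TSS, and with a window of 500 bp only Maf kept its call.

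**Figure D1:**
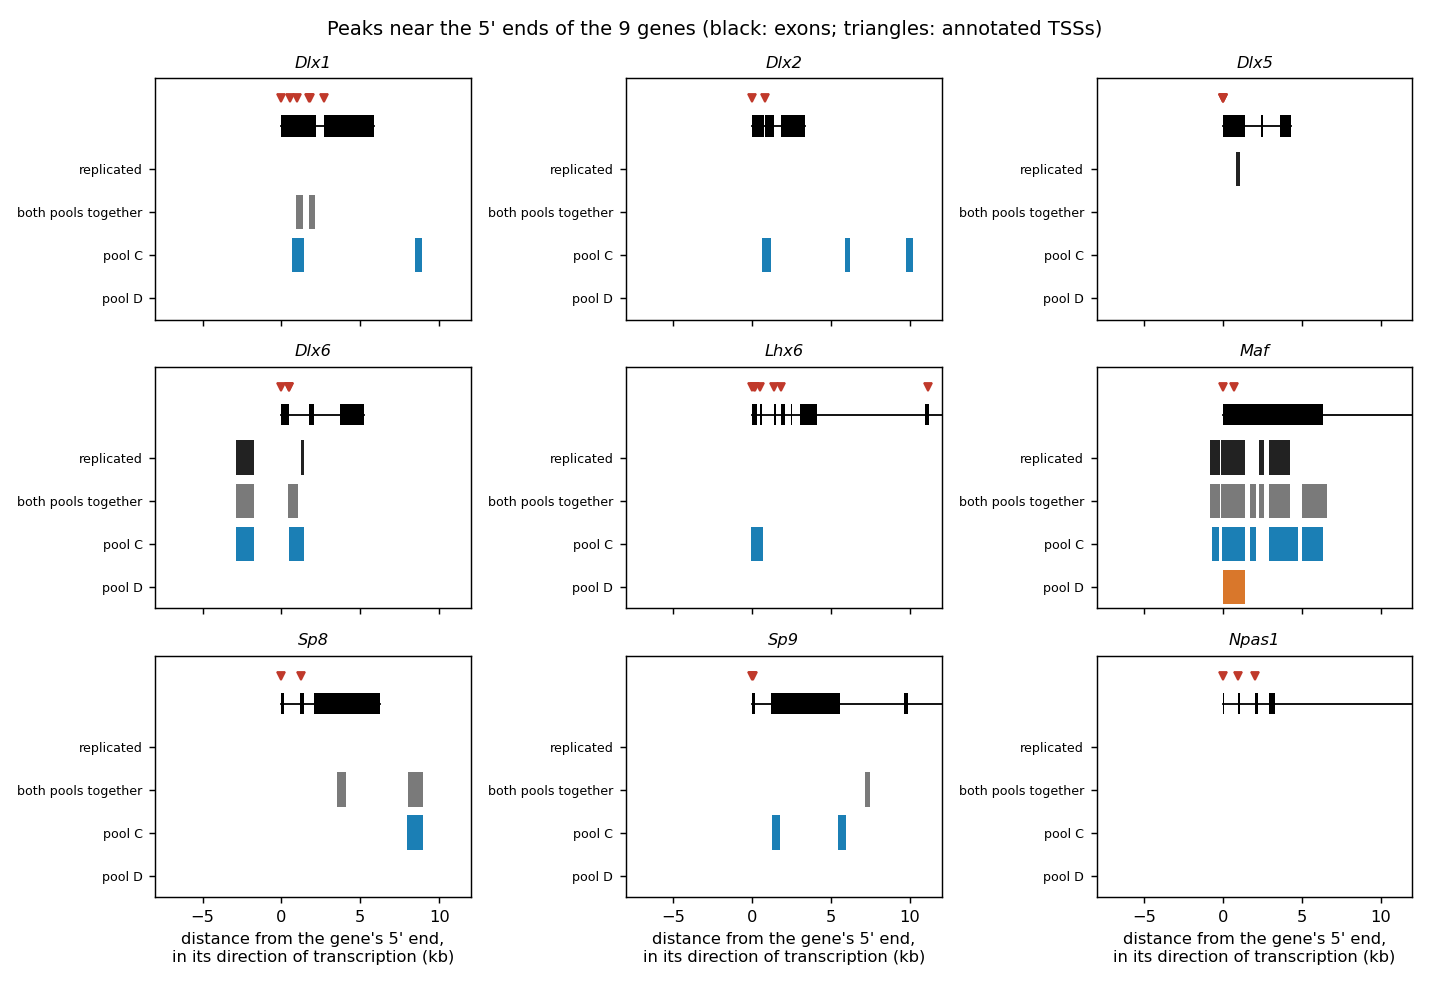
Peaks near the 5′ end of each of the 9 genes, by distance in kb in the direction of transcription (x axis) and by peak list (rows, with exons in black and annotated start sites as triangles above). Maf has peaks over its start in all 4 lists, Dlx1, Dlx2 and Lhx6 have a start-site peak in the pool C list and none in the replicated list, and Npas1 has none in any list.

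Sequences are shown for promoters and peaks on which these calls differ, from the RefSeq promoter table and genome of build GRCm38.p6, which has the coordinates of mm10. The table holds 10 windows of 300 bp, from 250 bp before to 50 bp after a start, for 6 of the 9 genes, and holds no entry for Dlx5, Dlx6 and Maf. The first 3 lines are promoter windows on the strand of the gene: Dlx2 at chr2:71546705-71547004 (minus strand) with no peak in the window in any list, Lhx6 at chr2:36105359-36105658 (minus strand) with a pool C peak, and Sp9 at chr2:73271676-73271975 (plus strand) with no peak in any list. The last 2 lines are 300 bp around peak summits on the plus strand: the distal Dlx peak at chr2:71581218-71581517, the peak of the Dlx1-Dlx2 locus that all 4 lists hold, and the Sp8 peak at chr12:118855028-118855327, which stands in the combined and pool C lists. Capitals mark matches, on either strand, of TAATTA (core of homeodomain sites), GGGCGG (the GC box bound by Sp proteins), TGCTGA (a part of the site of Maf proteins) or ACGTG (core of bHLH-PAS sites).
Dlx2 promoter: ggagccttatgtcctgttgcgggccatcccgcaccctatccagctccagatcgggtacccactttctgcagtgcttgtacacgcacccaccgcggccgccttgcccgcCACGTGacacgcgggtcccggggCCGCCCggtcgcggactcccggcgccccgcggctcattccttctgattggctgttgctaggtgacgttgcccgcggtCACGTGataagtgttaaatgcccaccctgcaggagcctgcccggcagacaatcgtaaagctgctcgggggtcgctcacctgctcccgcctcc
Lhx6 promoter: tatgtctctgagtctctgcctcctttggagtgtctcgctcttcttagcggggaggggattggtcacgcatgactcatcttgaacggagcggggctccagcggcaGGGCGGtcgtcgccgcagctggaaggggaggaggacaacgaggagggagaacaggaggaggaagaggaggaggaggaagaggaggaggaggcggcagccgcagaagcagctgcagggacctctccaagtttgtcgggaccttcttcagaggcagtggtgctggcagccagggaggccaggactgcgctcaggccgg
Sp9 promoter: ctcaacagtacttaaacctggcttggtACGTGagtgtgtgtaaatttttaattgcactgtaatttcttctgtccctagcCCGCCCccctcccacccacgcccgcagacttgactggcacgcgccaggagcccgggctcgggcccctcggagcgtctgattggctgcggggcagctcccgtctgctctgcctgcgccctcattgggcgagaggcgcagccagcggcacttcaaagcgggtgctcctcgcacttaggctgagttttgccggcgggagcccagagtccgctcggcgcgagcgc
Distal Dlx peak: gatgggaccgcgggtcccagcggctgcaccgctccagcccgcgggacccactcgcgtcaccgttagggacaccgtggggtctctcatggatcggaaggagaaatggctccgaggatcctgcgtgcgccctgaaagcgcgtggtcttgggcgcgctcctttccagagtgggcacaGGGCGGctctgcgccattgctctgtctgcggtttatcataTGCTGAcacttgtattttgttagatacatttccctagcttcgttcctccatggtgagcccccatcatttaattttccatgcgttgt
Sp8 peak: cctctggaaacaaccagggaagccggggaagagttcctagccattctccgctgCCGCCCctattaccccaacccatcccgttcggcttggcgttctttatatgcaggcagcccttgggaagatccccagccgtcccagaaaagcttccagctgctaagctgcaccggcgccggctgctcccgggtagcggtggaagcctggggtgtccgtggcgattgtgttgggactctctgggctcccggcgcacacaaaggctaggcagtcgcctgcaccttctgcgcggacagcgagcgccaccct

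Among 32851 promoter windows of the table, 5.29% held TAATTA, 35.7% GGGCGG, 19.5% TGCTGA and 19.6% ACGTG. The Dlx2 window held 1 GGGCGG and 4 ACGTG matches, the latter being 2 palindromes CACGTG, each matched on both strands. No other matches in the printed windows overlapped. The Lhx6 window held 1 GGGCGG, and the Sp9 window held 1 GGGCGG and 1 ACGTG. Around the summits of 88929 replicated peaks, windows of 300 bp held TAATTA in 6.64%, GGGCGG in 12.3%, TGCTGA in 24.2% and ACGTG in 15.7% of cases. The distal Dlx window held 1 GGGCGG and 1 TGCTGA, and the Sp8 window held 1 GGGCGG. None of these 5 windows held TAATTA, which says only that these letters are not in these windows of the reference genome. The alleles of the hybrid mice were not read. CpG content differed between the windows, with an observed over expected ratio of 0.9 at Dlx2, 0.83 at Sp9, 0.58 at this Lhx6 window and 0.66 at the Npas1 window. Over all coding windows of the table with a ratio of 0.6 or more, 89.7% of 9901 overlapped a replicated peak. A check of CpG content over the 9 genes is void because 66.7% of them have a window, under the minimum of 80%.

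Maf carried the highest signal of the 9 genes in each list that marked it. The tissue is a mixture of cells, so the Maf peaks cannot be assigned to interneurons or to any other cell type. Its main promoter peak in the replicated list spanned chr8:115706408-115707920, 1513 bp over the annotated 5′ end and the first exon, with a signal of 7.17 and a −log10 q of 31.7. Signal is the authors' own value for a peak, and the labels do not state how it was scaled, so it is read only within a list. That signal was above 17.2% of the best promoter signals of the 13524 coding genes marked in the replicated list, whose median was 13.8. The combined list gave the same interval and signal. The Maf promoter peak had a signal of 9.03 and a width of 1442 bp in the pool C list, and 4.61 and 1410 bp in the pool D list. Pool C and pool D peaks overlapped 95.2% and 93.2% of the replicated Maf promoter peak.

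Further peaks lay along the Maf gene. The replicated list had a second promoter peak of signal 3.52 at chr8:115708001-115708651, and 2 peaks in the transcribed 5′ part of the gene, of signal 3.94 at chr8:115703535-115704895 and of 3.01 at chr8:115705172-115705487. The last 2 lie in an exon of Maf, at the summit in annotated UTR that is downstream of Maf coding sequence. Both are within 1 kb of a start of the antisense transcript Gm15655, so the signal there cannot be assigned to either transcript. The summit of the main promoter peak also overlaps Gm15655. Maf was the only one of the 9 genes with a replicated peak in the gene body outside the promoter window, where 36.2% of coding genes had one. That count was 3 of 9 in the combined list (Maf, Sp8 and Sp9, against 38.2%), 2 of 9 in pool C (Maf and Sp9, against 37.4%) and 0 of 9 in pool D (28.2%). An intergenic peak 56.2 kb downstream of the Maf start was in the combined list with signal 3.35 and in the pool C list with 4.31, and in neither the replicated nor the pool D list.

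The Dlx1-Dlx2 locus held no replicated peak at either gene. Dlx1 had a pool C peak at chr2:71528786-71529513 with signal 4.31 and 2 combined-list peaks, the stronger of signal 2.89, all over its first exons and overlapping the antisense gene Dlx1as. Dlx2 had a promoter peak in the pool C list alone, chr2:71545572-71546118, with signal 3.49. Both genes' signals were low within the pool C list, where the marked coding genes had a median promoter signal of 15.8 and a 10th percentile of 6.08.

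The 9426 bp between Dlx1 and Dlx2 held 2 pool C peaks that covered 744 bp, 7.89% of the interval. One was at chr2:71536565-71536991 with signal 2.87, near a start of Dlx1as, and the other was intergenic at chr2:71540564-71540880 with signal 3.85. The replicated, combined and pool D lists had no peak there. The 9236 bp between Dlx5 and Dlx6 had no peak in any of the 4 lists.

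The distal Dlx peak, whose sequence is printed above, was the intergenic peak of this locus that every list contained. It lay 34.6 kb upstream of the Dlx2 start at chr2:71581125-71581498. Its signal was 5.41 in the replicated list and also 5.41 in the combined list, 4.39 in pool C and 5.22 in pool D. Its replicated signal was at or above 65.5% of that list's peaks and above those of the replicated peaks at Dlx5 and Dlx6. The locus also had replicated peaks of signal 2.66 and 3.59 in an intron of Metap1d, a methionine aminopeptidase gene, the nearer of them 44.1 kb from a Dlx1 start.

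**Figure D2:**
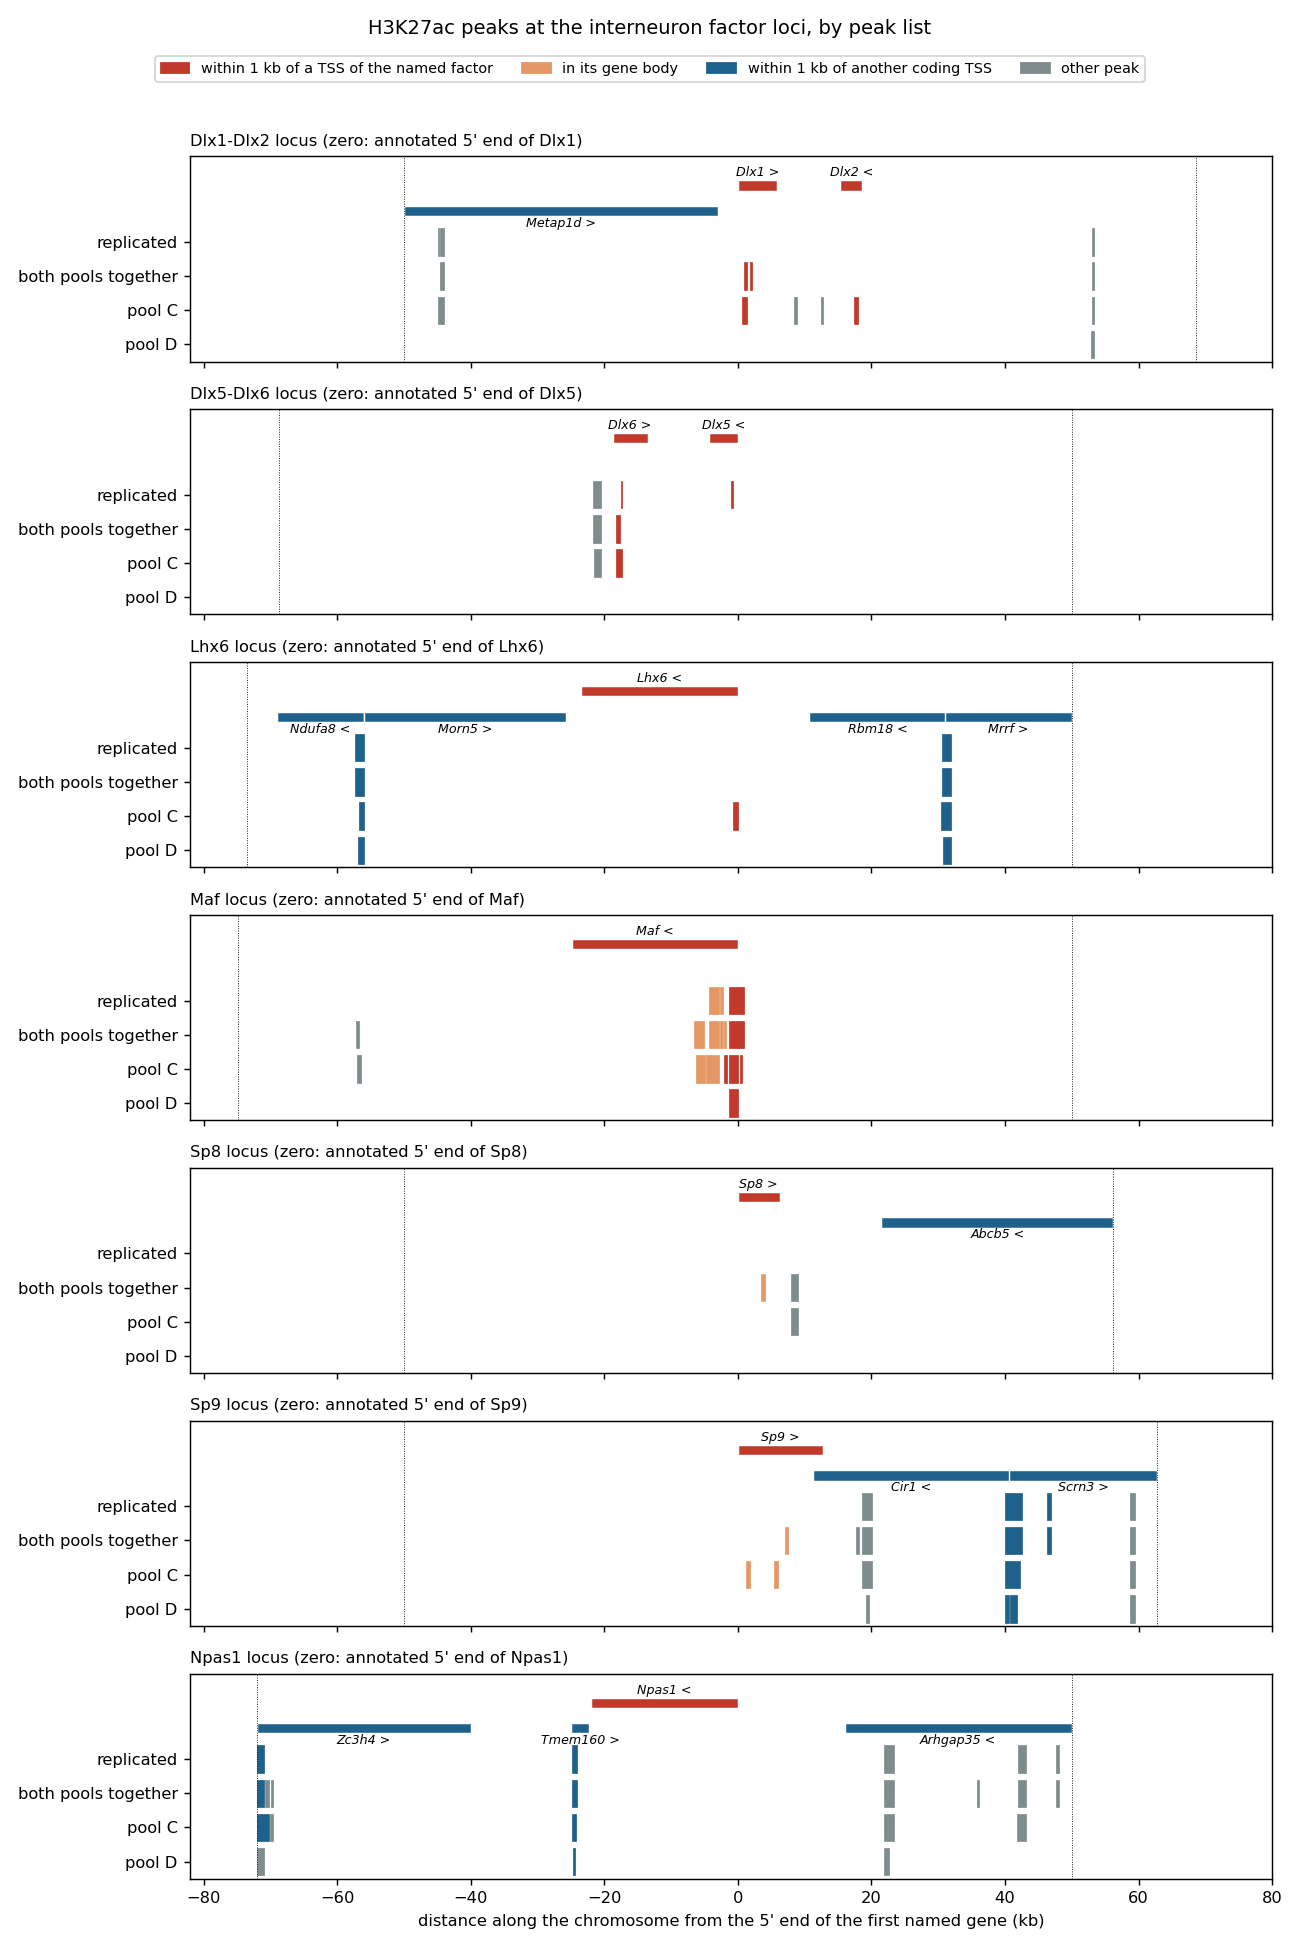
Peaks of each list (rows) along the 7 loci, by distance in kb along the chromosome from the 5′ end of the first named gene (x axis), with dotted lines at the edges of the 50 kb flanks, where genes that run further are cut. The intergenic peak to the right of Dlx2 stands in all 4 rows, the Sp8 locus has none in the replicated and pool D rows, and the peaks at the starts of neighbouring genes recur in all 4 rows at the Lhx6 locus.

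At the Dlx5-Dlx6 locus the 3 replicated peaks were narrow or low, and the pool D list had none within 50 kb. Dlx6 had a replicated peak at chr6:6864547-6864777, 231 bp wide with signal 3.47, 93.5% overlapped by a pool C peak of 936 bp with signal 3.9. The combined list did not contain this peak. Its Dlx6 promoter peak was a separate interval, chr6:6863752-6864387, of 636 bp with signal 2.66. The replicated Dlx6 peak overlaps the antisense transcripts Dlx6os1 and Dlx6os2. Dlx5 had a replicated peak at chr6:6881001-6881289, 289 bp wide with signal 3.12 and a −log10 q of 5.71, which no other list contained. The third replicated peak, chr6:6860449-6861605, had signal 3.82 and lay at a start of Dlx6os1, 2.39 kb upstream of the Dlx6 start. It was in the combined list with signal 3.82 and the pool C list with 3.38. The Dlx5 and Dlx6 signals were above 1.53% and 2.64% of the promoter signals of marked coding genes in the replicated list.

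Lhx6 had 1 peak of its own in the 4 lists. This pool C peak, chr2:36104696-36105457, covered its first start sites with a width of 762 bp and a signal of 4.05, above 2.88% of the promoter signals of coding genes marked in pool C. The nearest replicated peak to an Lhx6 start was 30.6 kb away, at the shared promoter of Rbm18 and Mrrf, with signal 16.1. The other replicated peak at this locus was at the shared promoter of Ndufa8 and Morn5, with signal 14.9. Both neighbouring promoters were marked in all 4 lists.

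Sp8 and Sp9 had no promoter peak in any list but peaks in or beside the gene in some. The Sp8 locus had no replicated peak and no pool D peak, and the nearest replicated peak to an Sp8 start was 316 kb away, a distance above that of 92.8% of coding genes. An intergenic peak past the 3′ end of Sp8 had signal 5.74 in pool C, at chr12:118854298-118855274, and 4.16 in the combined list. The combined list also had a peak of signal 2.78 in the UTR of an Sp8 exon, at chr12:118849859-118850434. In Sp9 the pool C list had a peak in a coding exon at chr2:73273174-73273683, with signal 3.32, that began 1208 bp from a start and so fell just outside the promoter window. A second pool C peak of signal 4.1 and a combined-list peak of signal 2.71 lay in introns of Sp9. The 4 replicated peaks of the Sp9 locus were all in or at Cir1 and Scrn3, whose shared promoter had a signal of 16.3.

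Npas1 had no peak in its 22008 bp body in any of the 4 lists. The nearest peak to an Npas1 start was 21.9 kb away in each list, with signals of 3.37 in the replicated and combined lists, 4.05 in pool C and 2.64 in pool D. It lay in Arhgap35, near a start of the non-coding transcript Gm17826. The locus held 5 replicated peaks, of which the strongest was the 8002 bp peak at the promoter of Zc3h4, with signal 42.7, which crosses the edge of the flank. Tmem160, next to the 3′ end of Npas1, had a promoter peak of signal 8.63.

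Counted together, the 7 loci held 21 replicated peaks in 6 loci, 31 combined-list peaks, 28 pool C peaks and 11 pool D peaks. Of the 21, 4 were at the promoters of the interneuron factor genes, 6 at promoters of other coding genes, 4 near a non-coding start, 1 in another exon, 5 in introns and 1 was intergenic. The median signal of the 4 peaks at the factor promoters was 3.5, with a range of 3.12 to 7.17. The 6 peaks at other coding promoters had a median of 15.5 and a range of 2.66 to 42.7. Of 10 other coding genes with a start at these loci, 9 had a replicated promoter peak, where 61.6% of all coding genes did. The exception was Abcb5 beside Sp8. These are not separate calls, since Ndufa8 with Morn5, Rbm18 with Mrrf, and Cir1 with Scrn3 each share 1 best promoter peak. For Metap1d, the promoter peak (signal 6.93) lies outside the 50 kb flank.

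**Figure D3:**
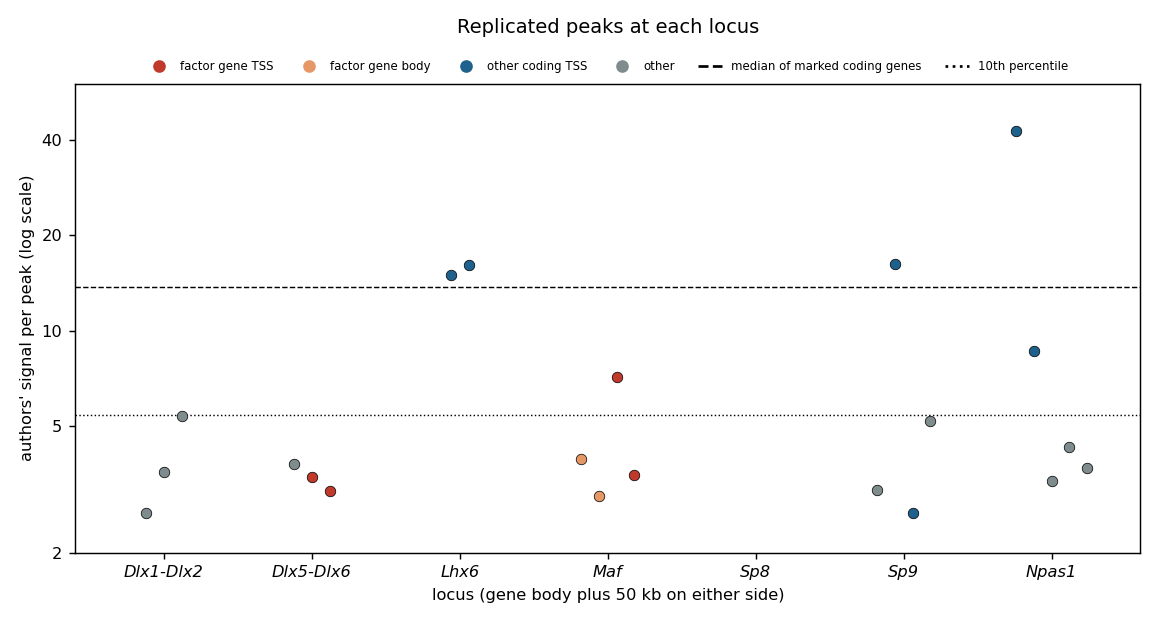
The authors' signal of each of the 21 replicated peaks (y axis, log scale) at the 7 loci (x axis), coloured by what the peak overlaps; the dashed and dotted lines are the median, 13.8, and 10th percentile, 5.44, of the best promoter signal of marked coding genes. The main Maf peak at 7.17 is the only peak at a factor promoter above the dotted line, while 5 of the 6 peaks at other coding promoters are above it.

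Pool support was read as the share of replicated peaks with at least 50% of their length in peaks of a pool. Of the 21 peaks, 8 had it from both pools, 38.1% (95% Wilson interval 20.8 to 59.1), where 42.6% of all replicated peaks did. A further 9 had it from pool C alone, none from pool D alone and 4 from neither. Of the 6 replicated peaks at the promoters or in the bodies of the factor genes, only the main Maf promoter peak had both pools. Of the other 5, the Dlx6 peak and 2 Maf peaks were in pool C alone, and the Dlx5 peak and the Maf peak of signal 3.01 were in neither. Of the 6 peaks at other coding promoters, 4 had both pools. The pool D list is the shortest of the 4 lists, and its part in this split was not tested.

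Covered length was read for each gene, over its body plus 50 kb flanks and over the whole gene body. Promoter peaks were counted where they lie in the stretch read. The windows of paired Dlx genes overlap and share peaks, so the 9 values are not separate regions. Replicated peaks covered a median of 1.61% of the gene body plus flanks over the 9 genes, against a median of 5.07% over all coding genes, and all 9 values were below the latter. The value was 0% at Sp8, 0.362% at Dlx2, 1.15% at Dlx1 and 1.59% at Dlx6. It was 1.61% at Dlx5, 2.18% at Lhx6, 3.08% at Maf, 4.17% at Npas1 and 4.7% at Sp9. The Lhx6, Sp9 and Npas1 values come from peaks in and at neighbouring genes, since none of these has a replicated peak in its body. Dlx1 and Dlx2 have none in the body either. Their values come from the distal Dlx peak and, for Dlx1, also from the peaks in Metap1d. Locus medians over the 9 genes were 1.72% in the combined list, 2.46% in pool C and 0.419% in pool D, against 5.38, 5.24 and 2.89% over all coding genes, and all 9 genes were below the latter in each.

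The gene bodies alone gave another picture, which differed between the lists. In pool C the median covered share of the body was 8.29% over the 9 genes against 3.99% over all coding genes, and 5 of 9 genes were above the latter. In the combined list it was 2.86% against 4.12%, with 4 of 9 above. In the replicated list it was 0% against 3.85%, with Dlx5 (6.75%), Dlx6 (4.41%) and Maf (12.3%) above, and in pool D 0% against 1.92%, with Maf (5.56%) above. At Dlx1 (12.4%), Dlx2 (16.3%) and Dlx6 (17.9%) the promoter peak was the only pool C peak in the body. The same held for Dlx5 and Dlx6 in the replicated list. These Dlx gene bodies are 3347 to 5869 bp long, so 1 narrow promoter peak sets the share.

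**Figure D4:**
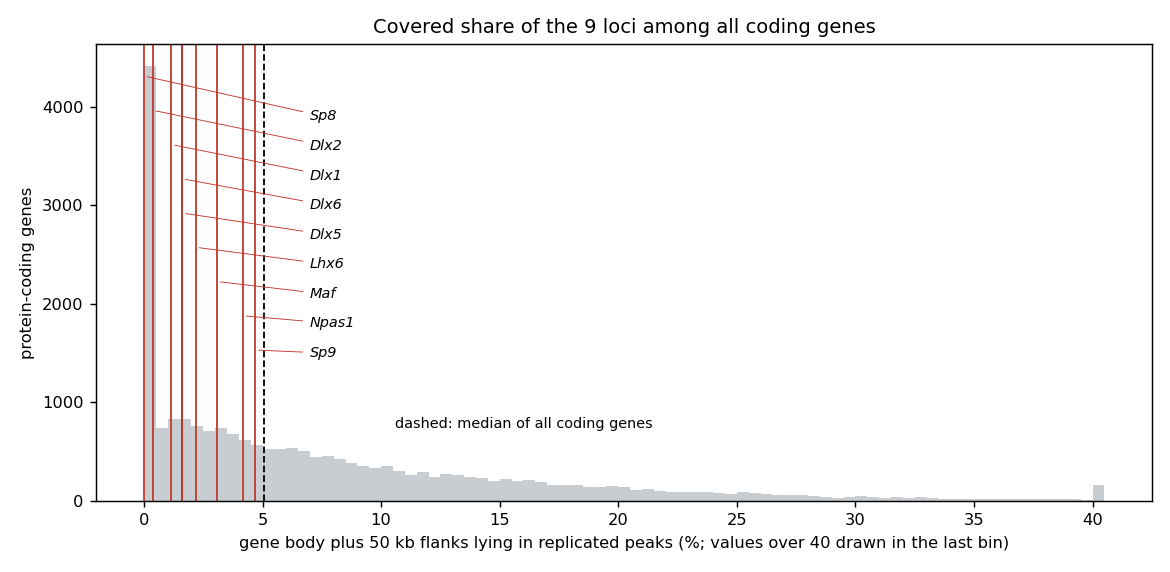
Histogram over all coding genes of the share of gene body plus 50 kb flanks lying in replicated peaks (x axis, %; y axis, number of genes), with red lines for the 9 genes. All 9 lines lie to the left of the dashed median of 5.07%.

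Other genes of the interneuron lineage were read from lists chosen by name. Of 20 other lineage factors, 15 had a replicated promoter peak, 75.0% against 61.6% of coding genes, with a median signal of 12.1 among those marked. The highest signals were those of Zeb2 (34.4) and Tshz1 (24.6, whose start is shared with Zadh2), and those with none were Gsx1, Gsx2, Isl1, Lhx8 and Nkx2-1, early ventral forebrain factors. Of 25 effector and subtype genes, 14 had one, 56.0%. They included Gad1, a GABA-synthesising enzyme gene, with signal 12.4, the other such gene, Gad2, with 3.01, and the cannabinoid receptor gene Cnr1 with 14.9. Those with none were the GABA transporter gene Slc32a1 and the subtype or peptide genes Calb2, Cort, Crh, Htr3a, Npy, Pvalb, Reln, Sst, Tac1 and Vip. Several of these genes, such as Zeb2 and Prox1, are known to be active in excitatory neurons or glia as well, so these lists do not mark interneurons alone. All 16 excitatory lineage factors had a promoter peak in all 4 lists, where 57.8% of all coding genes did. Of 21 genes related in sequence to the 9, 12 had a replicated promoter peak, led by Sp3 with signal 43.1, and the Dlx relatives Dlx3 and Dlx4 had none in any list.

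**Figure D5:**
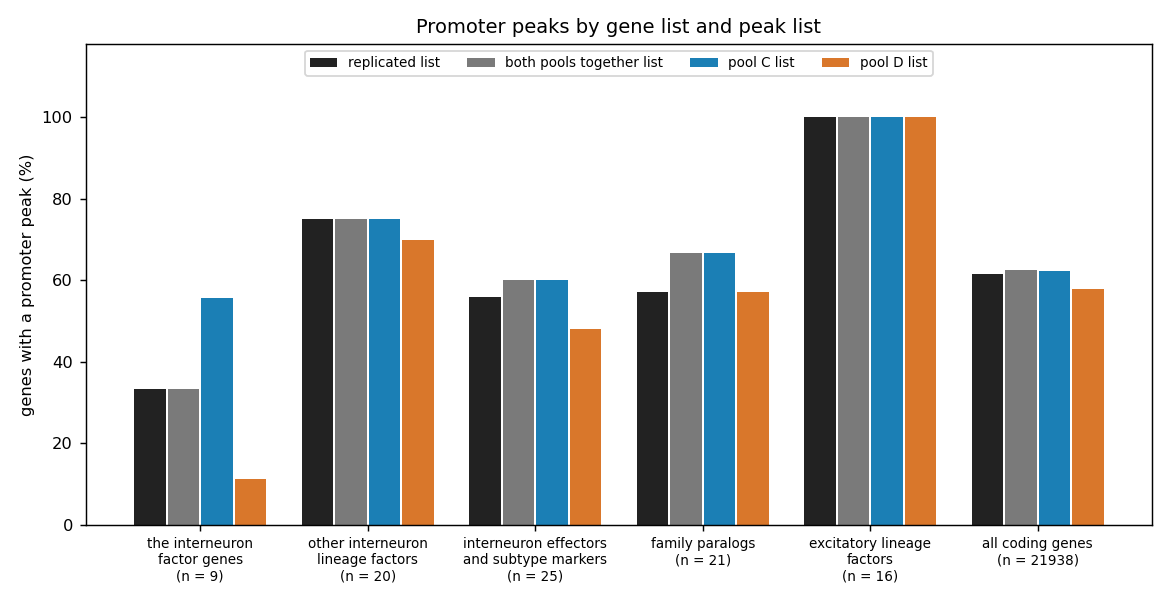
Share of genes with a promoter peak (y axis, %) for the 9 interneuron factor genes, 4 other gene lists and all coding genes (x axis), with 1 bar per peak list. The 9 genes stand at 33.3, 33.3, 55.6 and 11.1% in the replicated, combined, pool C and pool D lists, and the excitatory lineage factors at 100% in each.

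Likeness was read as the same presence or absence of a promoter peak in the 4 lists, which share reads, among the 45 other interneuron genes. Dlx1, marked in the combined and pool C lists, had the pattern of Slc32a1, the vesicular GABA transporter gene, which 0.957% of all coding genes showed. Dlx6, marked in all lists but pool D, had a pattern also found at Elfn1 and Gad2 and in 3.09% of all coding genes. The pattern of Dlx2 and Lhx6 (pool C alone) and that of Dlx5 (replicated list alone) occurred in none of the 45 genes, and in 0.401% and 0.287% of all coding genes. Maf shared its pattern with 26 of the 45 genes and 57.8% of all coding genes, and Sp8, Sp9 and Npas1 shared theirs with 15 of the 45 and 36.7% of all coding genes. These 2 patterns were about as frequent among the 45 genes as among all coding genes.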

How the data were processed

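H3K27ac ChIP-seq peaks of 4 samples (2 pools of 7 biosamples, 2 technical replicates each, 200 to 600 bp fragments) were analysed as 1 group with no contrast and no test. Per the labels, the authors deposited narrowPeak lists on mm10: a replicated list, and lists from both pools together and from each pool that they call pseudoreplicated. The sources used here do not give the aligner, the peak caller or their versions. The deposited columns hold a score, a signal of unstated scaling, −log10 p and −log10 q values, and a summit position. The score and −log10 p were not used further.

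Peaks were joined to GENCODE M21 genes (21938 coding genes), promoters being 1 kb either side of any annotated TSS. No peak of the 350032 ended past its chromosome. Wilson intervals cover counting error only. Biosamples and pools limit replication to 2, and the pools may also differ in depth. The code for the promoter calls was run on simulated peaks placed inside the promoter window, and 200 of 200 seeded genes on chromosome 2 were recovered. That placement fixes the outcome for correct code, so the run says nothing about the deposited peaks.

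The 9 genes, the gene lists and the named-gene rule were chosen with earlier results of these data known. All 9 genes were named. Of the interneuron lists, up to 6 genes with the highest signal and those without a peak were eligible. Of the other lists, up to 4 and 2 were eligible. Genes of a like pattern and neighbours with a peak at their TSS were also named. Some genes that the rule would name are not reported here. Genes named outside this rule were named after their values were seen. Alternatives varied the promoter window, TSS set, peak threshold, list, flank, overlap and the peaks kept, and those for the region between paired Dlx genes were added after seeing the data. Analyses ran in Python 3.11.15 (pandas 2.3.3, numpy 2.4.6, scipy 1.17.1), with plots from matplotlib 3.10.9.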

Additional observations from a re-analysis of the deposited data

How the results depend on the processing

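Under 15 alternative settings, 46 recomputed values differed from the reported one by no more than 1.5 times (counts), the SD between the pool lists (covered lengths and the share of coding genes) or the Wilson interval (pool support), and 21 differed by more. For covered length that SD is wide, so values within it can still differ several-fold. Below, each cause was not tested unless the setting itself gives it. Leaving a pool out means reading the other pool's own list, whose values are given above, and no replicated list was made anew. The count of 3 interneuron factor genes with a promoter peak became 1 (Maf) with a 500 bp window and 1 (Maf) with peaks above the median signal, and ranged from 1 to 5 when either pool was left out. The share of coding genes with one was 58.1% above the median signal and 57.9 to 62.3% with a pool left out. The 21 replicated peaks at the loci became 9 above the median signal, 10 with 25 kb flanks, 56 with 100 kb flanks and 5 in the gene bodies alone, where the wider or narrower search sets the count. With a pool left out, the list of the other pool held 11 to 28 peaks there. The share of replicated peaks in both pools, 38.1%, was 20.0% with 25 kb flanks and 20.0% in gene bodies alone. The median covered length over the 9 genes with their flanks, 1.61%, was 0.362% above the median signal, 4.48% with 100 kb flanks and 0% in gene bodies alone, where all coding genes had 3.75, 5.38 and 3.85%. Without pool D it was 2.46% against 5.24% for all coding genes, and without pool C 0.419% against 2.89%. The count of 1 gene with a body peak outside its promoter was 0 above the median signal, 3 in the combined list and 0 to 2 with a pool left out. Between the paired Dlx genes, 0 to 2 peaks were found with a pool left out, an alternative added after seeing the data. No paired analysis was possible because the samples form 1 group. Depth is unknown, so the absence of a peak, above all in the pool D list, is not absence of the mark.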
